A study of Homo sapiens with 9 samples.

Results

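The 10 genes described here encode enzymes that make serine, glycine, cysteine, proline and asparagine (PHGDH, PSAT1, PSPH, SHMT2, CTH, PYCR1 and ASNS) and proteins made in amino acid and endoplasmic reticulum stress (SESN2, DDIT3 and STC2). They were selected by gene symbol from 14884 genes with a single symbol, and all 10 were measured, each by 1 feature of the array, so the rule of taking a gene's brightest feature over all 9 arrays left out nothing. The list itself was proposed with the differences between the groups already known. The members' differences are therefore given as a description, with their standard errors and with no test.

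The cells were BT-549, a human triple-negative breast cancer line, so all groups stand for 1 cell line. All of them received the lipid Lipofectamine RNAiMAX. The mimic group (3 arrays) received a synthetic mature miR-150-5p at 50 nM with the lipid, the negative control group (3 arrays) a non-specific small RNA at 50 nM with the lipid, and the mock group (3 arrays) the lipid alone. The medium was replaced after 24 h and total RNA was collected at 72 h and read on a whole-transcript array as log2 signal, on which a difference of 1 is a 2-fold change. Each array read the RNA of a whole culture, so a lower signal in every cell and fewer cells holding the transcript cannot be told apart. No label gives separate cultures for the 3 arrays of a group, so their spread may be technical.

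Serine is made from a glycolytic intermediate in a pathway of 3 enzymes. PHGDH oxidises 3-phosphoglycerate, PSAT1 adds the amino group and PSPH removes the phosphate. SHMT2 then turns serine into glycine in mitochondria and passes a carbon unit to folate. When amino acids run short, uncharged tRNA activates the kinase GCN2, translation initiation factor eIF2 is phosphorylated, general translation slows and translation of the transcription factor ATF4 rises. ATF4, often as a dimer with a C/EBP protein, binds elements near many amino acid synthesis genes, and ASNS is a classic case. PHGDH is amplified or highly expressed in some breast cancers, mainly those without oestrogen receptor.

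Array medians over all 53617 features lay between 2.43 and 2.48, and Pearson's r between arrays, across features that are not independent replicates, was 0.981 to 0.989 within groups and 0.977 to 0.986 between groups. Of the markers of mesenchymal breast cancer cells 4 of 6 were measured, with gene means from 4.97 to 8.76. Of the epithelial markers 5 of 6 were measured, with gene means from 1.88 to 4.50, and the means of the receptor genes ESR1 and PGR were 2.13 and 1.79, below every array median. The signal of 23 small nucleolar or Cajal body RNAs differed between arrays of a group, with a mean of 6.43, 5.95 and 6.75 on mimic arrays 1 to 3, 5.91, 6.83 and 5.87 on negative control arrays 1 to 3, and 5.62, 6.78 and 5.64 on mock arrays 1 to 3. Its part in the results was not tested beyond a fit with this mean as a covariate.

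All of the genes but CTH and PYCR1 had their lowest group mean in the negative control. PSAT1, PHGDH, ASNS and SESN2 shared 1 outline, with that mean 0.70 to 1.36 log2 units below the mimic and 0.51 to 0.97 below mock. Their differences for mimic minus mock varied, from -0.27 for ASNS to 0.58 for SESN2. For SHMT2 that mean was 0.65 below the mimic and 0.24 below mock. DDIT3 and STC2 had another outline, with similar means in mimic and negative control arrays and a higher mean on mock arrays. CTH ran the other way, with its highest mean in the negative control, and the means of PSPH and PYCR1 differed little between the groups.

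**Figure D1:**
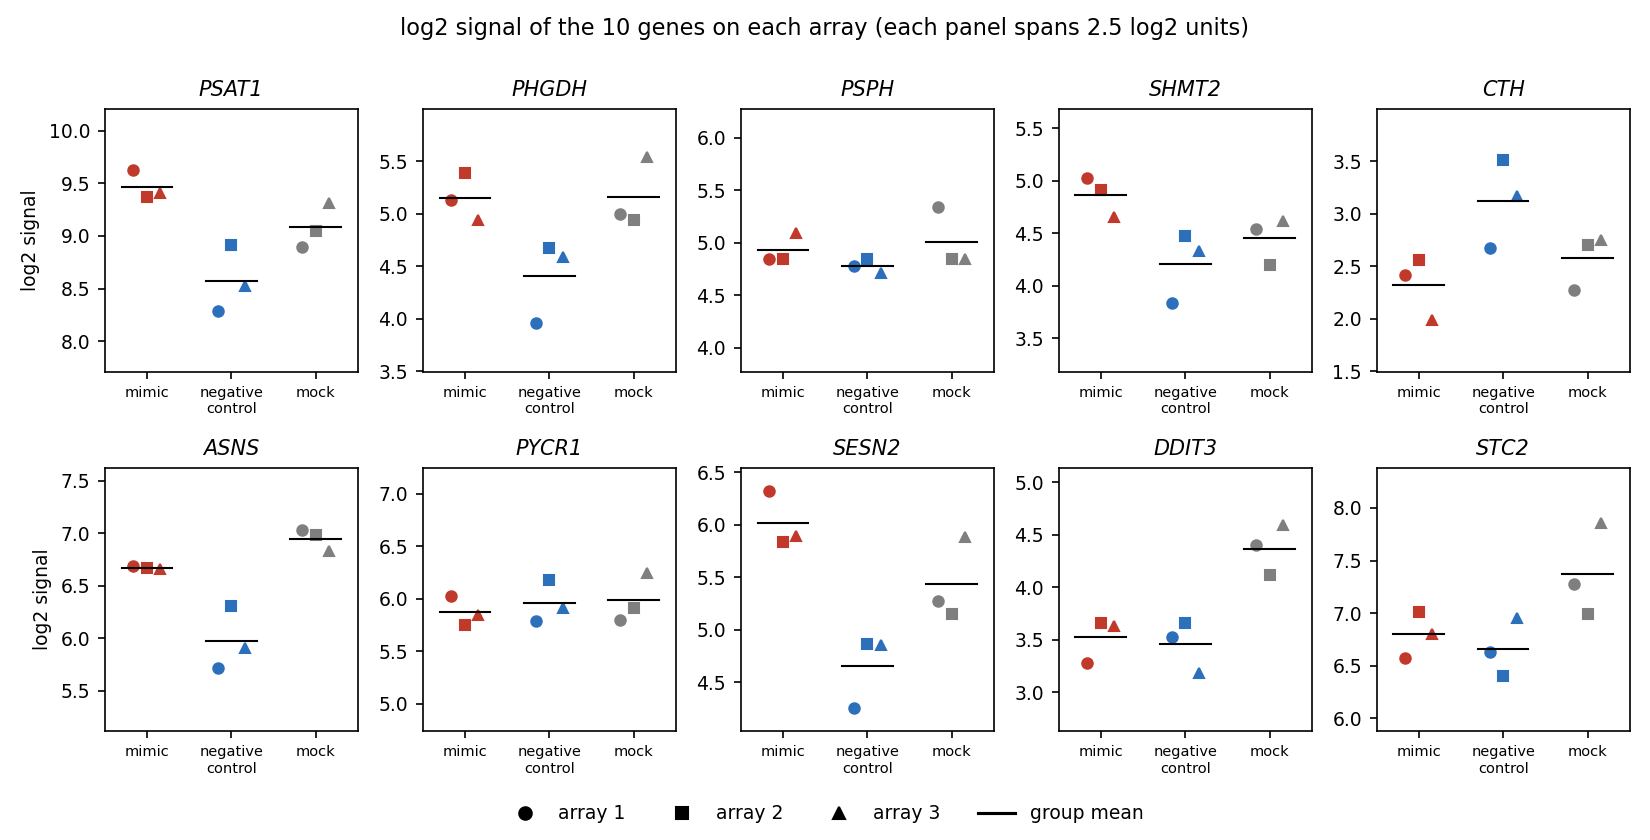
The log2 signal of each of the 10 genes on each array (points, with the symbol giving the array number) and the group mean (line), for mimic, negative control and mock. Each panel spans the same 2.5 log2 units. For PHGDH, ASNS and SESN2 the 3 negative control arrays lie below the other 6, and for DDIT3 and ASNS the 3 mock arrays lie above the other 6.

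The promoter windows of 4 members are printed here, chosen by 2 patterns of their arrays. The negative control arrays of ASNS, PHGDH and SESN2 lay below all others. The mock arrays of DDIT3 and ASNS lay above all others, so ASNS had both patterns. Each window runs from 250 bases before to 50 bases after a transcript start in RefSeq (GRCh38.p14) and is given 5′ to 3′ on the gene's strand. Capitals mark matches on either strand to TGATGNAA, the core of elements bound by dimers of C/EBP and ATF4 proteins, to GGGCGG, which Sp1 proteins bind. They also mark the letters CCAAT, which the factor NF-Y binds.
ASNS, chr7:97872359-97872658, minus strand: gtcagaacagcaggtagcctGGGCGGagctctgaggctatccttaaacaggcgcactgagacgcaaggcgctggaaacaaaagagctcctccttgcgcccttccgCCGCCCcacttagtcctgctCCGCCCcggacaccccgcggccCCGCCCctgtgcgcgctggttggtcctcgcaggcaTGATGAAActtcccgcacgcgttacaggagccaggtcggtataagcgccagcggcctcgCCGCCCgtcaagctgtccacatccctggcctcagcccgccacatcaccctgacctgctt
PHGDH, chr1:119711684-119711983, plus strand: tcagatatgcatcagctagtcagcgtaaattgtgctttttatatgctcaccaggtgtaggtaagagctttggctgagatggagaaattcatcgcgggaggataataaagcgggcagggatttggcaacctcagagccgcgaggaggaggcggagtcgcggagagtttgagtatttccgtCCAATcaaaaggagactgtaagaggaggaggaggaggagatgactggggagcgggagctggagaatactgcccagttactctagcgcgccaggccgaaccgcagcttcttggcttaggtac
SESN2, chr1:28259268-28259567, plus strand: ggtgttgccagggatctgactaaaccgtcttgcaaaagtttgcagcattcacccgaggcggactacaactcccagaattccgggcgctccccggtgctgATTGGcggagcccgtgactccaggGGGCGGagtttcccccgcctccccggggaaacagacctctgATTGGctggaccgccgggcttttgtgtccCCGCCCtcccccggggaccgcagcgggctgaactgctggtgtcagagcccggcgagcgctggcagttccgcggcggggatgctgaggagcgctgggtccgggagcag
DDIT3, chr12:57520465-57520764, minus strand: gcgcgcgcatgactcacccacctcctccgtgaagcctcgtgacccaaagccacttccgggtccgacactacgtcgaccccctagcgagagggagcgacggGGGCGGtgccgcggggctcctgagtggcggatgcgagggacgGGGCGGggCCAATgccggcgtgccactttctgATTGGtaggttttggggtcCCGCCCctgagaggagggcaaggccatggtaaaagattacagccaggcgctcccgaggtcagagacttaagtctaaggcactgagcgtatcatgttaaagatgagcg

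PHGDH, the dehydrogenase that commits 3-phosphoglycerate to serine, read 5.13, 5.39 and 4.94 on mimic arrays 1 to 3, 3.96, 4.67 and 4.59 on negative control arrays, and 5.00, 4.94 and 5.54 on mock arrays. All 3 negative control arrays were below the lowest of the other 6. Its difference was 0.75 ± 0.22 (SE, n = 3 per group) for mimic minus negative control, -0.76 ± 0.22 for negative control minus mock and -0.01 ± 0.22 for mimic minus mock. The negative control level was thus 1.68-fold below that of the mimic and 1.69-fold below that of mock, while the mimic and mock means, 5.15 ± 0.23 and 5.16 ± 0.33 (SD, n = 3), were apart by less than the spread of either group.

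PSAT1, the aminotransferase of the next step, read 9.63, 9.37 and 9.41 on mimic arrays, 8.29, 8.92 and 8.52 on negative control arrays, and 8.89, 9.05 and 9.31 on mock arrays. The mimic arrays lay above all 6 others, with the lowest of them at 9.37 and the highest mock array at 9.31. Negative control array 2, at 8.92, overlapped mock array 1. Its difference was 0.89 ± 0.17 for mimic minus negative control, 0.39 ± 0.17 for mimic minus mock and -0.51 ± 0.17 for negative control minus mock.

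PSPH, the phosphatase of the last step, averaged 4.93 ± 0.14 in the mimic, 4.78 ± 0.07 in the negative control and 5.01 ± 0.28 in mock (SD, n = 3). The mimic and mock arrays overlapped. The highest negative control array tied with the lowest mimic and mock arrays at 4.85, and no negative control array lay above any of them. The largest difference was -0.23 ± 0.14 for negative control minus mock. Array mock 1, at 5.34, stood above the other 8, of which 5 had exactly the same value, 4.85, and without it that difference was -0.07. Only by this tie did the negative control arrays of PSPH, unlike those of PHGDH, not all lie below both other groups.

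SHMT2 read 5.03, 4.91 and 4.65 on mimic arrays, 3.84, 4.47 and 4.33 on negative control arrays, and 4.54, 4.20 and 4.61 on mock arrays. As for PSAT1, the mimic arrays lay above all 6 others, and the negative control and mock arrays overlapped. Its difference was 0.65 ± 0.18 for mimic minus negative control, 0.41 ± 0.18 for mimic minus mock and -0.24 ± 0.18 for negative control minus mock. The last of these was -0.05 without negative control array 1, -0.16 without mock array 3, and -0.37 without negative control array 2 or mock array 2. The margin of the mimic over mock was narrow, 0.04 between mimic array 3 and mock array 3.

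CTH, cystathionine gamma-lyase, makes cysteine from the sulfur of methionine on a serine backbone. It read 2.42, 2.56 and 1.99 on mimic arrays, 2.68, 3.51 and 3.17 on negative control arrays, and 2.28, 2.70 and 2.75 on mock arrays. Its difference was -0.80 ± 0.22 for mimic minus negative control, -0.25 ± 0.22 for mimic minus mock and 0.54 ± 0.22 for negative control minus mock. The mimic arrays lay below the negative control arrays, and only in that comparison did the groups not overlap. Without mimic array 3 its difference for mimic minus mock was -0.09, without mock array 1 it was -0.40 and without mock array 3 it was -0.17. Without negative control array 2 that for negative control minus mock was 0.35. CTH was the dimmest of the 10, with mimic and mock arrays near the array medians of 2.43 to 2.48.

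ASNS, asparagine synthetase, separated the 3 groups completely. It read 6.69, 6.67 and 6.66 on mimic arrays, 5.71, 6.31 and 5.91 on negative control arrays, and 7.03, 6.98 and 6.83 on mock arrays. The negative control was lowest, the mimic between, and mock highest, with no array out of place. Its difference was 0.70 ± 0.14 for mimic minus negative control (1.62-fold), -0.27 ± 0.14 for mimic minus mock (1.21-fold lower) and -0.97 ± 0.14 for negative control minus mock (1.96-fold lower). The mimic arrays were close together (SD 0.02), against an SD of 0.30 in the negative control and 0.10 in mock.

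PYCR1, the mitochondrial enzyme that completes proline synthesis, averaged 5.87 ± 0.14 in the mimic, 5.96 ± 0.20 in the negative control and 5.99 ± 0.23 in mock (SD, n = 3). Its differences lay between -0.11 ± 0.14 and -0.03 ± 0.14, and the groups overlapped throughout. All 3 differences were smaller than the spread within the groups.

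SESN2, sestrin 2, binds leucine and holds back the growth kinase mTORC1 when leucine is scarce, and it is induced by ATF4 and by p53. It read 6.32, 5.84 and 5.89 on mimic arrays, 4.26, 4.86 and 4.86 on negative control arrays, and 5.27, 5.15 and 5.88 on mock arrays. The gap between the lowest mimic array and the highest negative control array was 0.98. Its difference was 1.36 ± 0.23 for mimic minus negative control (2.56-fold), the highest but 4 of all 14884 genes and the largest of the 10. For negative control minus mock it was -0.77 ± 0.23, with no overlap. For mimic minus mock it was 0.58 ± 0.23, and mock array 3 at 5.88 lay above the lowest mimic array.

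DDIT3 encodes CHOP, a C/EBP-family transcription factor of prolonged stress that is induced by ATF4. It read 3.28, 3.66 and 3.63 on mimic arrays, 3.53, 3.66 and 3.18 on negative control arrays, and 4.40, 4.11 and 4.59 on mock arrays. The mock arrays lay above all 6 arrays of cells given a small RNA. Its difference was -0.84 ± 0.16 for mimic minus mock, -0.91 ± 0.16 for negative control minus mock (1.88-fold lower) and 0.07 ± 0.16 for mimic minus negative control.

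STC2, stanniocalcin 2, a secreted glycoprotein induced in endoplasmic reticulum stress, read 6.58, 7.01 and 6.80 on mimic arrays, 6.63, 6.41 and 6.95 on negative control arrays, and 7.27, 6.99 and 7.86 on mock arrays. Its difference was -0.58 ± 0.22 for mimic minus mock, -0.71 ± 0.22 for negative control minus mock and 0.13 ± 0.22 for mimic minus negative control. The outline was that of DDIT3 with more overlap, since mock array 2 at 6.99 lay below mimic array 2 at 7.01, though above the highest negative control array at 6.95. Without mock array 3, the highest, the differences from mock were -0.34 for the mimic and -0.47 for the negative control.

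**Figure D2:**
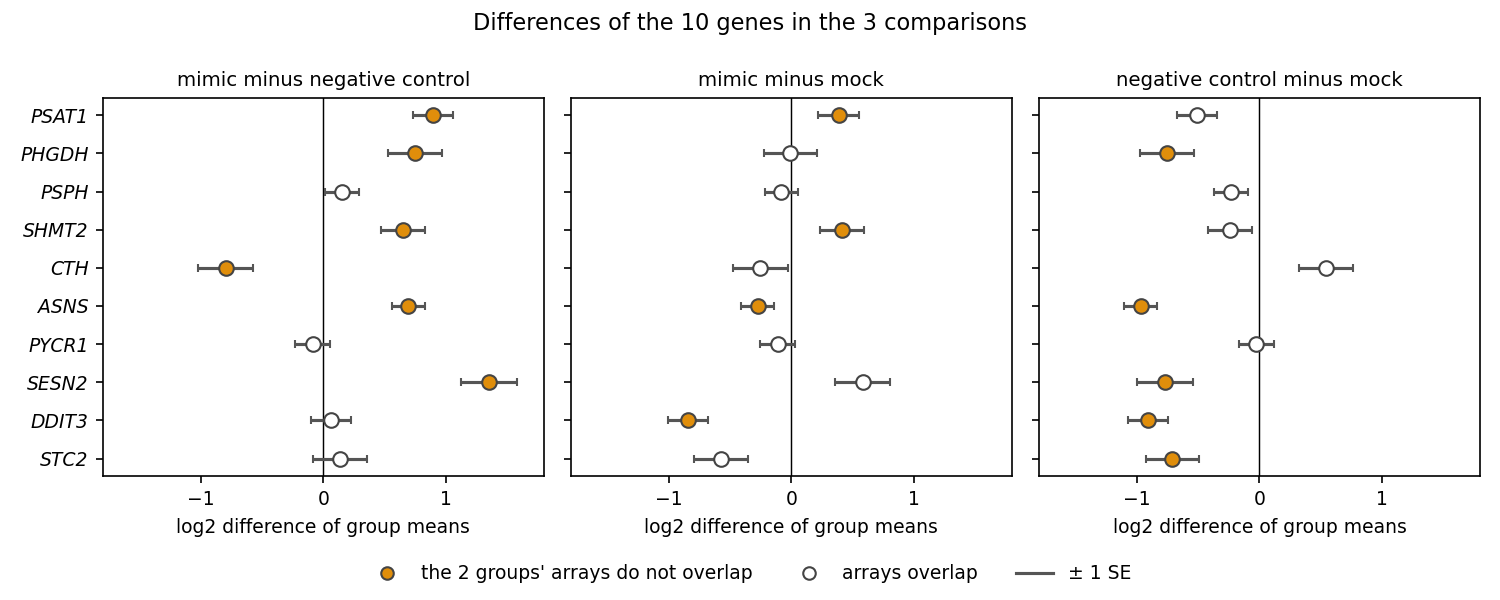
The difference of group means on the log2 scale (points) with 1 SE (bars) for each of the 10 genes in the 3 comparisons. Filled points mark genes whose arrays do not overlap between the groups compared, with a tie taken as overlap. They are 6 of 10 for mimic minus negative control, 4 for mimic minus mock and 5 for negative control minus mock. Of all genes, the first group lay all above or all below in 10.3% and 8.3%, 11.7% and 8.52%, and 6.21% and 5.78%, in the same order. The list was drawn up with these differences known, so nothing is read from the counts.

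Setting mimic against negative control compares cells given 2 different small RNAs. A difference holds what miR-150-5p changes and what the control RNA itself changes, and these cannot be told apart in it. Of the 10 genes, 8 were higher in the mimic and 2 lower, with a median difference of 0.40, where the median of all genes tested was -0.0044. The mimic arrays were all above the negative control arrays for 5 of the 10 (PSAT1, PHGDH, SHMT2, ASNS and SESN2), a pattern held by 10.3% of all genes, and all below for CTH, a pattern held by 8.3%. Since the list was drawn up with the differences in all 3 comparisons known, nothing is read from these counts or from those of the other comparisons.

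The comparison of the negative control with mock asks what a small RNA of no intended target does. It shares the negative control arrays with the comparison above, so a low negative control array raises one difference as it lowers the other. Of the 10 genes, 9 were lower in the negative control and 1 (CTH) higher, with a median difference of -0.61 beside 0.0076 for all genes. The negative control arrays were all below the mock arrays for PHGDH, ASNS, SESN2, DDIT3 and STC2, 5 of 10, as for 5.78% of all genes, and all above for 0 of 10, as for 6.21%.

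In the mimic against mock, 3 of the 10 genes were higher and 7 lower, with a median of -0.10 beside 0.00035 for all genes. The mimic arrays were all above the mock arrays for PSAT1 and SHMT2, 2 of 10, as for 11.7% of all genes, and all below for ASNS and DDIT3, 2 of 10, as for 8.52%.

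Across all 9 arrays, the negative control arrays lay below the other 6 for PHGDH, ASNS and SESN2, 3 of 10, as for 2.41% of all genes. The mock arrays lay above the other 6 for ASNS and DDIT3, 2 of 10, as for 2.52%. The arrays of a group also differed among themselves. Negative control array 1 was the lowest of its group for 7 of the 10 genes and negative control array 2 the highest for 9 of 10, and mock array 2 was the lowest of its group, alone or tied, for 6 and mock array 3 the highest for 8. The mean of the 10 genes, each taken relative to its own mean, was 0.13, 0.14 and 0.03 on mimic arrays 1 to 3, -0.51, -0.08 and -0.25 on negative control arrays, and 0.12, 0.03 and 0.38 on mock arrays. Without negative control array 1 the differences for mimic minus negative control were 0.75 for PSAT1, 0.52 for PHGDH, 0.46 for SHMT2, 0.56 for ASNS and 1.16 for SESN2.

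**Figure D3:**
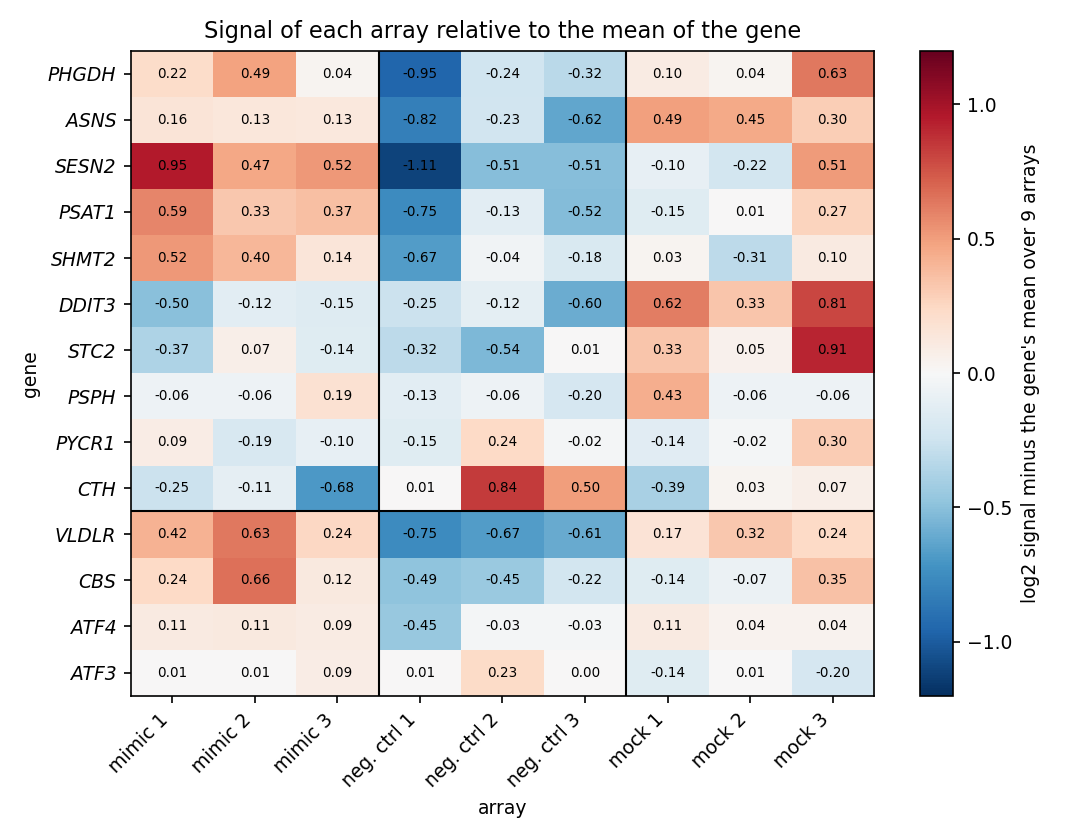
Log2 signal of each array minus the gene's own mean over the 9 arrays, for the 10 genes (above the line) and for VLDLR, CBS, ATF4 and ATF3 (below it). Columns are arrays in the order mimic, negative control, mock. Negative control array 1 holds the lowest values of PHGDH, ASNS, SESN2, PSAT1 and SHMT2.

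Members can be set beside their closest relatives, which have related activities. SHMT1, the cytosolic counterpart of SHMT2, rose in the mimic against mock (0.66 ± 0.11, adjusted p = 0.014, up to 0.063 without mimic array 1 or mock array 1). Against the negative control it was at 0.38 ± 0.11 (adjusted p = 0.11). STC1, the other stanniocalcin, averaged 7.35 ± 0.13 in the mimic, 8.11 ± 0.13 in the negative control and 8.14 ± 0.18 in mock (SD, n = 3). STC1 thus fell in the mimic against the negative control (-0.76 ± 0.12, adjusted p = 0.0096) and against mock (-0.78 ± 0.12, adjusted p = 0.0080), while STC2 had similar means in mimic and negative control. The difference between the relatives was not tested. SESN1 and SESN3, the other sestrins, were within 0.13 of no difference in each comparison, with group means between 1.84 and 2.65. PYCR3, a cytosolic relative of PYCR1, differed by 0.06 ± 0.16 between mimic and negative control (adjusted p = 0.90). CBS, which makes the cystathionine that CTH cleaves, had an outline opposite to that of CTH: 0.73 ± 0.17 for mimic minus negative control (adjusted p = 0.051) and -0.43 ± 0.17 for negative control minus mock (adjusted p = 0.39), with the negative control arrays below the other 6.

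ATF4, the transcription factor at the head of this response, read 7.75, 7.75 and 7.73 on mimic arrays, 7.19, 7.61 and 7.61 on negative control arrays, and 7.75, 7.68 and 7.68 on mock arrays. The negative control arrays lay below the other 6, with array 1 lowest. The differences were 0.27 ± 0.11 for mimic minus negative control (adjusted p = 0.27) and -0.23 ± 0.11 for negative control minus mock (adjusted p = 0.50), and neither passed. Its activity is set mainly by translation, which these arrays do not measure. ATF3, another stress-induced factor of the family, had means of 3.02, 3.06 and 2.87 in mimic, negative control and mock and passed in no comparison.

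Beyond the members, 166 genes of the surrounding pathways were listed in 8 groups, of which 85 were measured. The lists were written with earlier results of these data known, so their counts and p-values are a description and no independent support. In the mimic against the negative control, 4 of the 85 rose, 1 fell and 80 did not pass, at an adjusted p under 0.05 in limma's fit. Of all genes, 1.76% rose and 1.42% fell. VLDLR, a lipoprotein receptor whose gene is an ATF4 target, rose by 1.11 ± 0.11 (adjusted p = 0.0011). It was the 1 of 14 measured genes to pass in the group of amino acid response regulators, which holds targets as well. It read 4.50, 4.72 and 4.33 on mimic arrays, 3.34, 3.42 and 3.48 on negative control arrays, and 4.25, 4.41 and 4.33 on mock arrays, an outline like that of PHGDH with less spread. Of 15 measured genes of serine, glycine and one-carbon metabolism, 1 rose, MTHFD2L, a mitochondrial folate enzyme downstream of SHMT2 (0.91 ± 0.11, adjusted p = 0.0030), and 0 fell. Of 12 measured genes of other amino acid synthesis, 1 fell, GLUL, glutamine synthetase (-0.54 ± 0.12, adjusted p = 0.042, up to 0.13 without any array other than mock 2 and 3).

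The remaining groups had few calls in that comparison. Of 12 measured genes of the chaperone arm of the unfolded protein response, 1 rose, XBP1, a transcription factor of that response (0.50 ± 0.09, adjusted p = 0.016, up to 0.062 without mimic array 1 or 3 or negative control array 3). The chaperone genes HSPA5 and HSP90B1 were among the 10 listed genes of this arm that were not measured. Of 7 measured p53 targets, 1 rose, BAX, which opens mitochondria in apoptosis (0.42 ± 0.09, adjusted p = 0.038, up to 0.13 without any array other than negative control 3). The 6 measured genes of the eIF2 group were EIF2AK1, EIF2AK2, EIF2AK3, EIF2AK4, GCN1 and IMPACT, and no subunit of eIF2 itself was among them. By limma, 0 of these 6 and 0 of 19 of amino acid sensing by mTORC1 passed, with 1 and 6 at an unadjusted p under 0.05. At that unadjusted threshold were 8 of the 15 serine group genes and 28 of the 85, beside 2378 of all 14884 genes. The 14 amino acid transporters listed were not analysed here. The median difference was 0.13 for the serine group, 0.14 for the response regulators, 0.11 for amino acid sensing and -0.09 for the chaperone arm. The count of 5 was 2 without mimic array 1 or 3, and 3 without negative control array 1 or 3 or mock array 1.

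In the mimic against mock, 4 of the 85 rose and 0 fell by limma. At an unadjusted p under 0.05 were 22 of the 85, beside 2609 of all 14884 genes. Of all genes, 2.28% rose and 1.62% fell. Of the serine group, 3 of 15 rose: MTHFD2L (0.95 ± 0.11, adjusted p = 0.0023), SHMT1, given above, and SFXN1, the carrier that brings serine into mitochondria (0.50 ± 0.10, adjusted p = 0.030, up to 0.11 without any array other than negative control 2 and 3 and mock 3). MTHFD2L read 7.01, 7.10 and 7.24 on mimic arrays, 6.07, 6.29 and 6.24 on negative control arrays, and 6.06, 6.35 and 6.07 on mock arrays, and both of its calls were kept with each array left out. The fourth gene to rise was ASNSD1, an ASNS-like protein gene (0.65 ± 0.14, adjusted p = 0.037, up to 0.13 without any array other than negative control 2, mimic 2 and mock 2). The count of 4 was 1 without mimic array 1 or mock array 1, and 2 without mimic array 3 or negative control array 1.

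In the negative control against mock, 1 of the 85 fell and 0 rose by limma. At an unadjusted p under 0.05 were 15 of the 85, beside 1643 of all 14884 genes. Of all genes, 0.168% rose and 0.477% fell. The gene that fell was VLDLR (-0.92 ± 0.11, adjusted p = 0.0071, and adjusted p = 0.067 with the replicate number as a block on the 6 arrays of these groups). The median of the response regulators was -0.18 and that of the serine group 0.02.

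**Figure D4:**
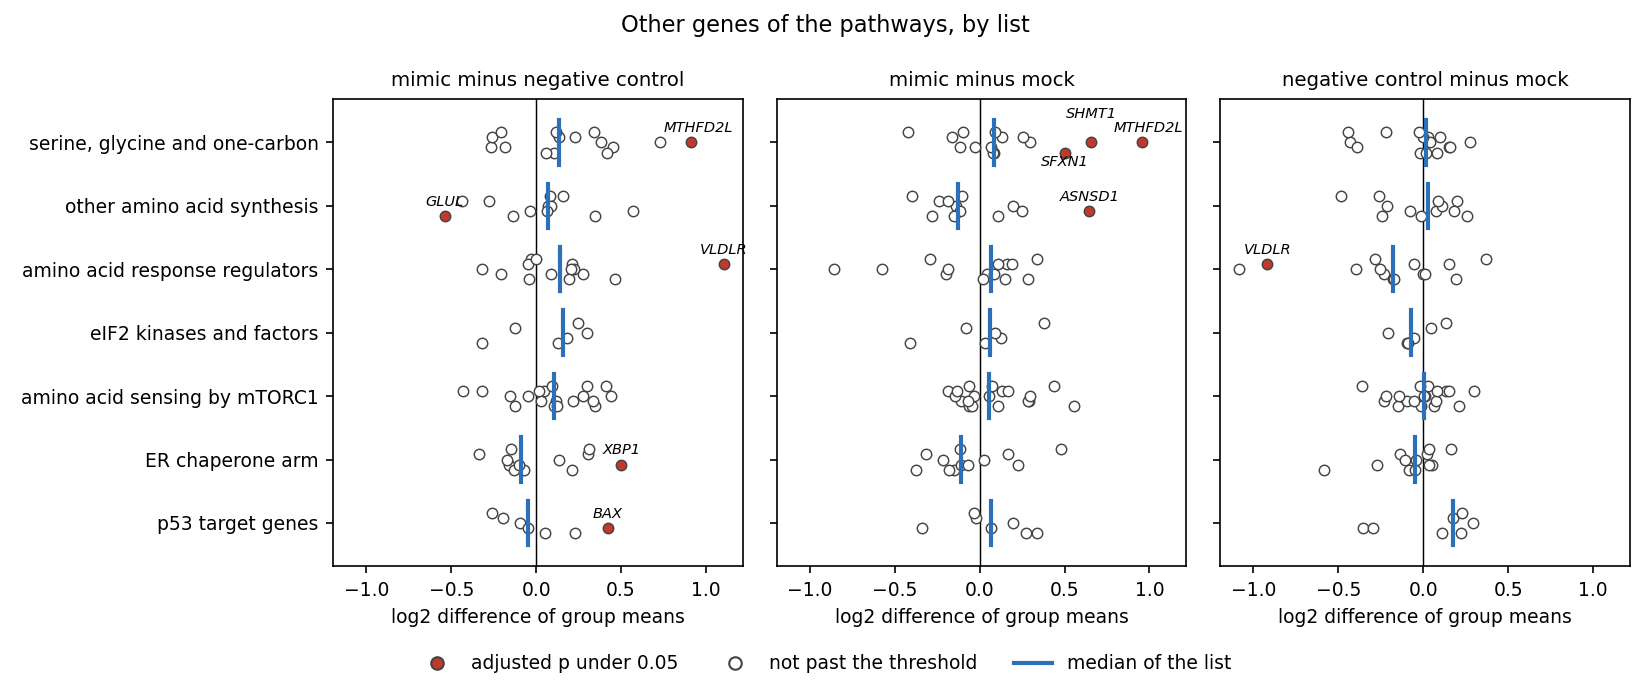
Log2 difference of each measured gene of 7 pathway lists in the 3 comparisons, filled where the adjusted p was under 0.05, with the median of each list as a bar. Most genes of each list lie within 0.5 of no difference, and VLDLR, MTHFD2L, SHMT1, SFXN1, ASNSD1, GLUL, XBP1 and BAX are the genes that passed in at least 1 comparison.

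The genes outside the list whose signal followed the mean of the 10 most closely over the 9 arrays, among 7433 at or above the median signal, were ZNF451 (Pearson's r = 0.947), LINC01963 (0.944), SOAT1 (0.940), EPHA4 (0.939) and TMC7 (0.932). These r describe 9 arrays in 3 groups that share their normalization, and genes picked as the highest of many. EPHA4, an ephrin receptor, averaged 5.67, 4.92 and 5.72 in mimic, negative control and mock, and SOAT1, which esterifies cholesterol, averaged 7.75, 7.33 and 7.70.

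RefSeq promoter windows were at hand for 7 of the 10 members, ASNS and DDIT3 with 2 starts each. The letters TGATGNAA occurred in the window of 1 of the 7, ASNS, where the match begins at position -68 from the start on the gene's strand, and in 3.62% of all 35116 windows. The E-box CACGTG occurred in 0 of the 7 and in 7.26% of all windows. CCAAT occurred in 6 of the 7, all but ASNS, and in 34.6% of all windows. PSAT1 held 3 CCAAT boxes, at -113, -83 and -52, and SESN2 and DDIT3 held 2. GGGCGG occurred in 5 of the 7 and in 45% of all windows, and at 5 places in the first ASNS window. GC content was between 52.7% (PHGDH) and 69.7% (the second ASNS start), beside a median of 58.7% and quartiles of 47.0% and 68.0% over all windows. These matches describe the letters of the windows. Sequence farther from the starts was not searched, so a gene without a match may hold one elsewhere.

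**Figure D5:**
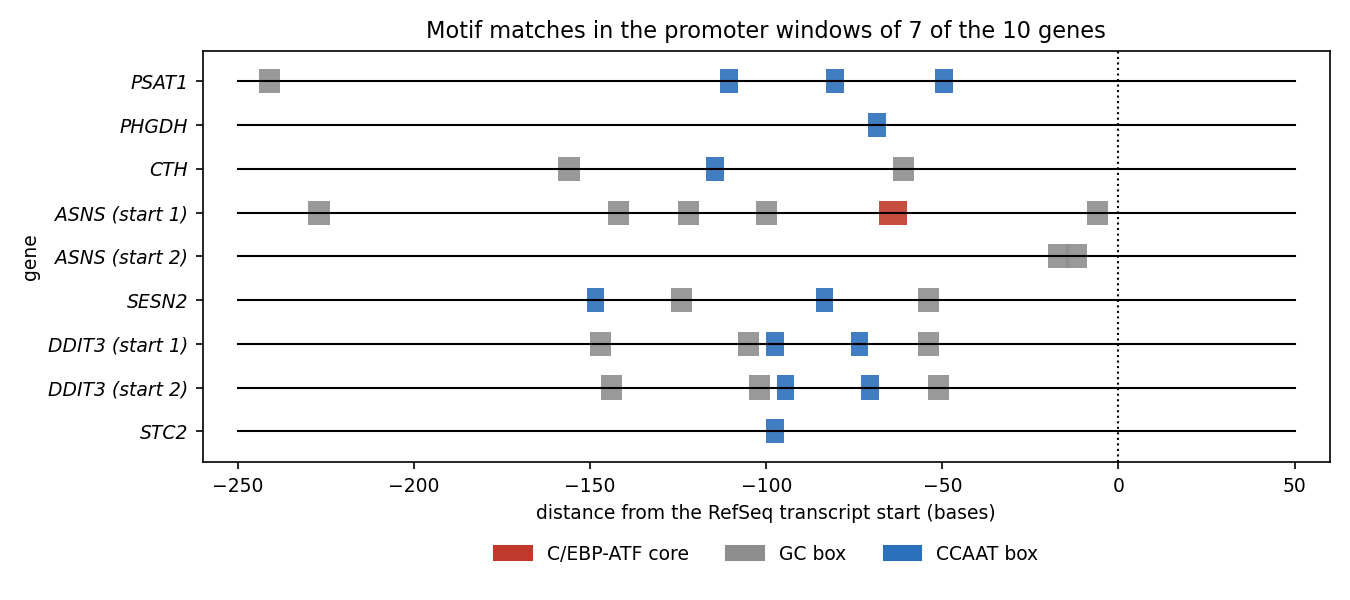
Positions of motif matches in the 9 promoter windows of 7 genes, as distance in bases from the transcript start (dotted line). Red marks TGATGNAA, found in the first ASNS window alone, grey GGGCGG and blue CCAAT, which is absent from both ASNS windows.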

How the data were processed

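Total RNA of 9 samples was read on Affymetrix Human Gene 2.0 ST arrays. Per the labels, the RNA was labelled with a FlashTag biotin kit. The deposited values are log2 signals, which the authors made with RMA per the submitters' processing notes. RMA corrects the background, equalises the distributions of the arrays and sums the probes of a feature, so differences are relative to the bulk of features. The sources used here give no version for it. The table held no missing values. Of 53617 features, 16098 had a single symbol in the platform's annotation, and all their gene IDs matched a RefSeq table (GRCh38.p14, for names). The brightest feature stood for each of 14884 genes.

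All genes were fitted in R 4.3.3 with limma 3.58.1 (functions lmFit and eBayes, 1 mean per group, 9 arrays, 9.60 total degrees of freedom), with two-sided p-values, adjusted within each comparison by the Benjamini-Hochberg method, and a threshold of 0.05. Differences are first-named minus second-named group, and the number of arrays limits their precision. The fit was tested on simulated data. The members, lists and motifs were chosen with earlier results of these data known, and the GC and CCAAT boxes after the promoters were read. Genes outside the list were named by rule: relatives of members, ATF4, ATF3, up to 4 called genes of each list, and the 5 most alike in pattern.

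Deviations from the group means of same-numbered negative control and mock arrays correlated at r = 0.152, 0.225 and 0.147 across genes, each above 0.1, so these numbers may pair the samples. No label states this pairing. For negative control and mock arrays of differing numbers r was -0.16 to 0.02. For the mimic and either control r was -0.29 to -0.05 at the same number and -0.18 to 0.24 at differing numbers. The highest was mimic array 1 with negative control array 2, so an r of this size also arose without a shared number.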

Additional observations from a re-analysis of the deposited data

How the results depend on the processing

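Each of the 517 differences of the members under an alternative moved by less than the gene's spread within groups. For most alternatives this was fixed in advance, so it does not show that the differences are stable. Leaving out 1 of 3 arrays cannot move a difference by more than that spread. Testing all features, dropping dimmer genes, fitting 6 arrays or adding the block leaves a member's difference as it was. Of the 517, 12, all of differences under 0.2, turned sign. Counts of members past the threshold are no test, since the members were chosen with these differences known, and nothing is read from them. They were 3, all higher, for mimic minus negative control, 1, lower, for mimic minus mock and 2, both lower, for negative control minus mock, beside 1.76%, 1.62% and 0.477% of all genes. With all features of the array tested, limma counted 0 members in any comparison, and 0 at an adjusted p under 0.01. At an unadjusted p under 0.05 it counted 6, 5 and 7 members in the same order, beside 2378, 2609 and 1643 of all 14884 genes. Fitted on the 6 arrays compared, 1 member passed for mimic minus negative control and 0 for negative control minus mock. For negative control minus mock 1 passed with arrays centred on their medians and 1 with the small nucleolar RNA mean as a covariate (an alternative added after seeing the data). With arrays left out 1 at a time, 0 to 3 members passed for mimic minus negative control, 0 to 1 for mimic minus mock and 0 to 2 for negative control minus mock. The members' median was 0.65 for mimic minus negative control when dimmer genes below the median were dropped, which leaves out CTH, and lay between -0.70 and -0.43 for negative control minus mock with arrays left out. With the replicate block, 0 members passed for mimic minus mock and 1 for negative control minus mock, and 3, 2 and 1 other pathway genes in the order mimic minus negative control, mimic minus mock and negative control minus mock. On the 6 arrays of negative control and mock, chosen after seeing the data, the block left 0 members and 0 other genes. Of the other pathway genes, 5 for mimic minus negative control became 3 with all features, with trend and robust variance or on 6 arrays, 2 at an adjusted p under 0.01, 10 with the small nucleolar RNA covariate and 2 to 5 with arrays left out. The 4 for mimic minus mock became 2 with all features or on 6 arrays, 1 at the stricter threshold, 9 with the covariate and 1 to 5 with arrays left out. The cause of these changes was not tested.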

Other observations

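Some deposited values repeat exactly between arrays. PSPH had the same value, to all 5 decimals deposited, on 5 of 9 arrays (mimic 1 and 2, negative control 2 and mock 2 and 3), and PYCR1 on 2. Over all genes, 56.3% had at least 2 arrays with an equal value and 7.14% had 5 or more. ATF3 had 4 equal values and ATF4 2. The source of the equal values was not tested.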
